A study of Homo sapiens with 6 samples.

Results

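The genes described here make and use small RNAs, and they were read by name from a table of 26902 gene symbols. All 10 were found: the 4 Argonaute genes AGO1, AGO2, AGO3 and AGO4, the processing genes DROSHA, DICER1 and TARBP2, and the GW182 genes TNRC6A, TNRC6B and TNRC6C. RNA came from HMCB, a human melanoma cell line whose label gives an NRAS Q61K genotype, which both groups share. The 2 groups were cells transfected with siRNA against AHCYL1 (siAHCYL1, 3 libraries) and cells transfected with a control siRNA (siNC, 3 libraries), both taken 3 days after transfection. Both groups therefore received a small duplex RNA, cells without one were not analysed here, and no source used here gives the sequence of either siRNA. The series asks why and how AHCYL1, a protein that binds IP3 receptors, promotes proliferation in NRAS-mutant melanoma cells.

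Small RNAs of animal cells are made in steps. In the nucleus the RNase III enzyme Drosha, held by DGCR8 in the Microprocessor complex, cuts hairpins out of primary microRNA transcripts, and exportin 5 carries them to the cytoplasm. There Dicer, with its double-stranded RNA-binding partner TRBP (the product of TARBP2), trims them to short duplexes, while a synthetic siRNA of final size enters after these steps. An Argonaute protein keeps 1 strand as a guide, and GW182 proteins bind Argonaute and bring in the enzymes that shorten the poly(A) tail of the target. AGO2 is the human Argonaute known for cutting fully paired targets, and the base pairs of the guide's seed (bases 2 to 8) are enough for weaker repression of other transcripts.

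Levels are given as TPM, a measure of transcript abundance scaled by transcript length and to a fixed total in each library. Depth is unknown, since TPM does not keep it; from 13035 to 13189 genes per library stood at 1 TPM or more. The targeted gene was low in every library given its siRNA: AHCYL1 had 13.45, 11.13 and 10.97 TPM in siAHCYL1 cells and 150.02, 134.05 and 131.09 TPM in siNC cells (log2 fold change -3.44, SE 0.096, limma adjusted p = 5.64e-08). Of 6 melanocytic markers, SOX10 stood at 1009 ± 16.9 TPM in siAHCYL1 cells and 1037 ± 12.4 TPM in siNC cells (SD, n = 3 each), and MITF at 9.72 ± 1.42 TPM in siAHCYL1 cells and 10.99 ± 1.46 TPM in siNC cells. S100B averaged 28.98 ± 3.11 TPM in siAHCYL1 cells and 10.7 ± 0.58 TPM in siNC cells. The pigment genes were near the bottom, with PMEL at 1.83 ± 0.17 TPM in siAHCYL1 cells and 0.88 ± 0.60 TPM in siNC cells, MLANA under 1 TPM in each library and TYR listed at 0 in all 6. Of the blood cell markers CD3E and HBB were listed at 0 throughout, and PTPRC averaged 8.55 ± 1.90 TPM in siAHCYL1 cells and 3.45 ± 0.24 TPM in siNC cells. The 5 fibroblast markers summed to between 26.1 and 32.4 TPM in siAHCYL1 cells and between 15.3 and 17.9 TPM in siNC cells, with PDGFRA at 0. Most of that sum was LUM, with 28.96 ± 3.38 TPM in siAHCYL1 cells and 13.98 ± 1.33 TPM in siNC cells, while COL1A1 had 0.49 ± 0.25 TPM in siAHCYL1 cells and 2.18 ± 0.47 TPM in siNC cells. The 5 keratinocyte markers summed to between 16.5 and 22.6 TPM in siAHCYL1 cells and between 12.2 and 23.6 TPM in siNC cells, with KRT5, KRT1 and DSG3 at 0. KRT10 had 18.8 ± 3.41 TPM in siAHCYL1 cells and 15.9 ± 5.09 TPM in siNC cells, and KRT14 0.72 ± 0.48 TPM in siAHCYL1 cells and 1.13 ± 0.82 TPM in siNC cells. The 5 endothelial markers summed to at most 0.23 TPM in siAHCYL1 cells and 0.46 TPM in siNC cells. The part of PTPRC, LUM and S100B in the results below was not tested.

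At 3 days after transfection, AGO3, AGO2 and TNRC6A were lower in siAHCYL1 cells than in siNC cells, and no member passed the test in the other direction. The test compared log2(TPM + 1) between the groups across all genes with limma, and a gene passed at a Benjamini-Hochberg adjusted p under 0.05. All 10 members passed the filter of at least 1 TPM in at least 3 libraries. Of these 10, 3 changed, where 51.6% of the 13266 genes tested changed, and those 3 fell, where 21.2% of all genes fell. Without siAHCYL1 replicate 1, 5 members fell, DICER1 and TNRC6C joining, and the same 5 fell under median-of-ratios scaling and quantile normalization. In those settings 51.4%, 54.2% and 54.35% of all genes tested changed in either direction. Over all genes 30.4% rose, so that 58.9% of calls were higher (with quantile normalization, 48.1%). The members had a median log2 fold change of -0.16, beside 0.06 over all genes. The groups did not overlap in 4 of the 10 members, where they did not overlap in 59.2% of all genes. Fewer cells that express a gene and less of its RNA per cell cannot be told apart in these bulk libraries.

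**Figure D1:**
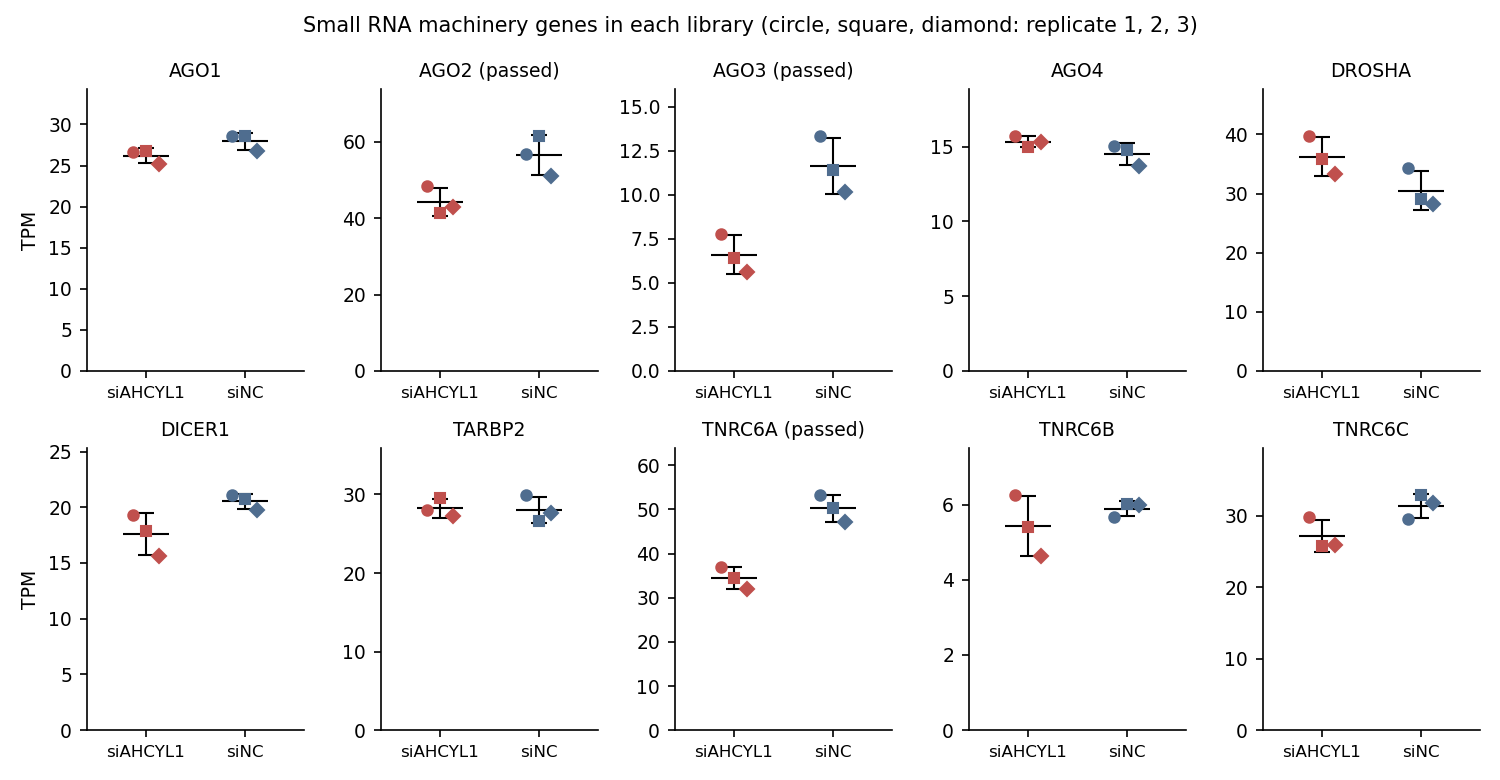
TPM of each member in each library, with siAHCYL1 on the left and siNC on the right of each panel; points are libraries, bars the mean and SD over 3 libraries, and every axis starts at 0. The 3 siAHCYL1 libraries lie below all 3 siNC libraries for AGO2, AGO3, TNRC6A and DICER1, and the groups overlap for the other 6.

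Since TPM is per length, their levels can be set side by side, as far as the annotation the authors used gives the right lengths. In siAHCYL1 cells the order by mean level was AGO2 (44.3 TPM), DROSHA (36.3 TPM), TNRC6A (34.4 TPM), TARBP2 (28.3 TPM), TNRC6C (27.1 TPM), AGO1 (26.2 TPM), DICER1 (17.6 TPM), AGO4 (15.3 TPM), AGO3 (6.59 TPM) and TNRC6B (5.43 TPM). In that order the ranges of neighbours overlapped for DROSHA and TNRC6A, TARBP2 and TNRC6C, TNRC6C and AGO1, DICER1 and AGO4, and AGO3 and TNRC6B. Within every siAHCYL1 library, though, DROSHA stood above TNRC6A, DICER1 above AGO4 and AGO3 above TNRC6B. The order of TARBP2, TNRC6C and AGO1 differed between libraries. In siNC cells AGO2 (56.5 TPM) and TNRC6A (50.2 TPM) led and overlapped each other, and TNRC6C, DROSHA, TARBP2 and AGO1 followed between 31.4 and 28.0 TPM, each overlapping the next. DICER1 (20.5 TPM), AGO4 (14.5 TPM), AGO3 (11.6 TPM) and TNRC6B (5.89 TPM) then stood apart from each other. AGO2 thus had the highest mean of the 10 in both groups and TNRC6B the lowest. Against all tested genes, whose median level over the 6 libraries was 23.95 TPM, AGO2 lay above 71.3% and TNRC6B above 19.9%.

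The nuclear and cytoplasmic cutters did not pass the test. DROSHA, the RNase III of the Microprocessor, lies on chromosome 5 from position 31400497 to 31532196 (GRCh38). It had 39.74, 35.79 and 33.25 TPM in siAHCYL1 cells and 34.28, 29.01 and 28.19 TPM in siNC cells. Its mean was higher in siAHCYL1 cells, but replicate 1 of siNC lay inside the siAHCYL1 range (log2 fold change 0.24, SE 0.10, limma adjusted p = 0.0705). Without siNC replicate 1 it passed (0.33, adjusted p = 0.0233), as it did with the replicate number as a block (adjusted p = 0.0109), with replicate 1 of both groups left out (0.26, adjusted p = 0.0244) and once a trend of length and GC content was taken out (0.23, adjusted p = 0.0171).

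DICER1, the cytoplasmic RNase III, at chromosome 14, positions 95086228 to 95158010, had 19.31, 17.86 and 15.61 TPM in siAHCYL1 cells and 21.08, 20.71 and 19.78 TPM in siNC cells. The groups did not overlap, yet they came within 1 TPM of each other and the difference did not pass (log2 fold change -0.22, SE 0.099, limma adjusted p = 0.0972). It passed under median-of-ratios scaling (-0.28, adjusted p = 0.0172), quantile normalization (-0.31, adjusted p = 0.0101), without siAHCYL1 replicate 1 (-0.28, adjusted p = 0.0369) and with the trend of length and GC taken out (-0.23, adjusted p = 0.0168). An antisense gene, DICER1-AS1, shares 80 exonic bases with it and averaged 1.22 TPM in siAHCYL1 cells and 0.87 TPM in siNC cells, and the libraries do not tell strands apart.

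TARBP2, which encodes TRBP, at chromosome 12, positions 53500921 to 53506431, had 28.01, 29.58 and 27.21 TPM in siAHCYL1 cells and 29.90, 26.62 and 27.64 TPM in siNC cells. The groups lay over each other, with means of 28.3 ± 1.21 TPM in siAHCYL1 cells and 28.1 ± 1.68 TPM in siNC cells (SD, n = 3 each). Between them lay a log2 fold change of 0.01 (SE 0.082, limma adjusted p = 0.919).

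Of the 4 Argonaute genes, AGO3 and AGO2 fell while AGO1 and AGO4 did not pass. AGO3, a guide-carrying Argonaute at chromosome 1, positions 35930718 to 36072500, had 7.79, 6.39 and 5.59 TPM in siAHCYL1 cells and 13.33, 11.41 and 10.18 TPM in siNC cells. Every siAHCYL1 library lay below every siNC library, and the siAHCYL1 mean was 56.6% of the siNC mean. This was the member with the lowest log2 fold change (-0.74, SE 0.14, limma adjusted p = 0.00231).

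AGO2, at chromosome 8, positions 140520156 to 140635619, had 48.56, 41.42 and 42.85 TPM in siAHCYL1 cells and 56.96, 61.56 and 51.01 TPM in siNC cells. The groups did not overlap, and the siAHCYL1 mean was 78.4% of the siNC mean (log2 fold change -0.34, SE 0.093, limma adjusted p = 0.0123). The call was lost without siAHCYL1 replicate 2 (-0.30, adjusted p = 0.0522) and without siNC replicate 2 (-0.28, adjusted p = 0.0592).

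AGO1 had 26.61, 26.81 and 25.20 TPM in siAHCYL1 cells and 28.55, 28.60 and 26.77 TPM in siNC cells. The highest siAHCYL1 library just exceeded the lowest siNC library (log2 fold change -0.09, SE 0.078, limma adjusted p = 0.359). AGO4 had 15.72, 14.96 and 15.33 TPM in siAHCYL1 cells and 15.05, 14.78 and 13.70 TPM in siNC cells. Its ranges overlapped as well (0.08, SE 0.091, limma adjusted p = 0.512), and its difference turned to -0.025 under quantile normalization.

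**Figure D2:**
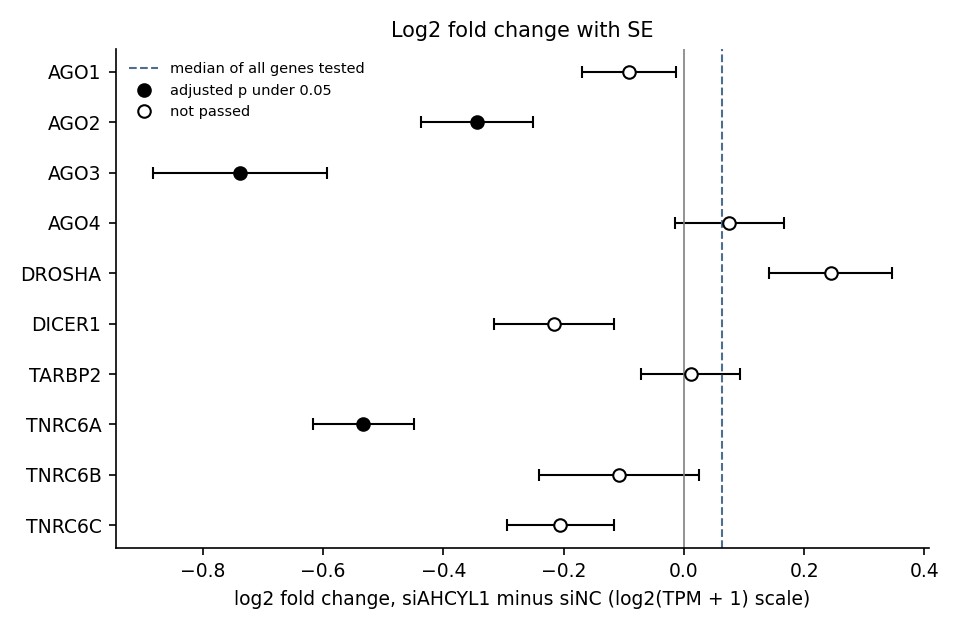
Log2 fold change of each member (siAHCYL1 minus siNC, log2(TPM + 1) scale) with its SE; filled points passed at an adjusted p under 0.05, open points did not, and the dashed line is the median of all genes tested (0.06). AGO3 (-0.74), TNRC6A (-0.53) and AGO2 (-0.34) are the filled points, all left of 0.

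AGO1, AGO3 and AGO4 are neighbours. AGO4, AGO1 and AGO3 lie in this order on the plus strand of chromosome 1, with 11917 bases between AGO4 and AGO1 and 189 bases between the end of AGO1 and the start of AGO3 in the GENCODE v29 annotation of GRCh38. AGO1 spans positions 35869808 to 35930528 and AGO4 positions 35808172 to 35857890. The difference between the log2 fold changes of AGO3 and AGO4 was -0.81 (SE 0.13), and AGO1 lay 0.65 (SE 0.13) above AGO3. Each gave an exact permutation p of 0.1 (two-sided, adjusted p = 0.1125 over 9 pairs), the smallest that 3 libraries against 3 allow, so no pair could pass. The same p came out for each of the 6 Argonaute pairs: AGO1 lay 0.25 (SE 0.085) and AGO4 0.42 (SE 0.071) above AGO2 in log2 fold change, AGO2 lay 0.39 (SE 0.12) above AGO3, and AGO1 minus AGO4 was -0.17 (SE 0.037).

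The windows of 300 bases around the starts that RefSeq gives for these neighbours and for TNRC6A are shown because 1 of the neighbours fell beside 2 that did not pass, and TNRC6A fell on another chromosome (RefSeq, GRCh38.p14, plus strand). These starts are not the GENCODE gene starts given above: the window begins 13151 bases after the GENCODE start in AGO1, 119192 after it in TNRC6A and 137 after it in AGO3, and 406 bases before it in AGO4. Capitals mark GC boxes, CCAAT boxes and ETS sites on either strand; where the GC box and the ETS site overlap, the capitals run through both.
AGO3, chr1:35930855-35931154: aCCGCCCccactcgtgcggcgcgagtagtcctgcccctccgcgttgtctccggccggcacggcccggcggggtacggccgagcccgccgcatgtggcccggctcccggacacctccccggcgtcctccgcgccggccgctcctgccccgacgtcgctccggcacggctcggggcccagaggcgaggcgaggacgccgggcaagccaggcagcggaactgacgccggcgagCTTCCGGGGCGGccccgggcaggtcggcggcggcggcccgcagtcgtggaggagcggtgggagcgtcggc
AGO1, chr1:35882959-35883258: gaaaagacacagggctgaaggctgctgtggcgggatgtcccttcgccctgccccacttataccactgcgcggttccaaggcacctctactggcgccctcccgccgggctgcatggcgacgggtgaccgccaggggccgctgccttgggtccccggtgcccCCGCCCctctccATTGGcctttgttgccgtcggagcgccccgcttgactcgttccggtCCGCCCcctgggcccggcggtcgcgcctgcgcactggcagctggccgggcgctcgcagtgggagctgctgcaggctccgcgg
AGO4, chr1:35807766-35808065: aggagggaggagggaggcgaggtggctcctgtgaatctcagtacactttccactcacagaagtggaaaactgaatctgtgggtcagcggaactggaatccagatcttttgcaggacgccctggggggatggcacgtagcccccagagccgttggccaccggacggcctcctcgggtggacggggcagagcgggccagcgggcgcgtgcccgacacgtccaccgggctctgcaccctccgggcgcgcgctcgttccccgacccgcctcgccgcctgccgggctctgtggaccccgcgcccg
TNRC6A, chr16:24729401-24729700: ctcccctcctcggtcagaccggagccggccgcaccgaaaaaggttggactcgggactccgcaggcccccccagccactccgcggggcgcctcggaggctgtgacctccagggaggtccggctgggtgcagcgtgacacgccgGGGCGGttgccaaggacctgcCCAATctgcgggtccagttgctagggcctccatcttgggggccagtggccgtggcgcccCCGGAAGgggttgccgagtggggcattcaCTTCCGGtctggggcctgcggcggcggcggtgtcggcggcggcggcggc
The AGO3 window held 50 CpG dinucleotides and 80.0% G and C, the AGO1 window 30 and 72.3%, the AGO4 window 29 and 69.0%, and the TNRC6A window 31 and 73.7%, where the median of 35116 such windows is 14 CpG. A GC box, the letters GGGCGG, present in 44.95% of all windows, stood 2 times in AGO3, 2 times in AGO1, 1 time in TNRC6A and 0 times in AGO4. The ETS site, searched as CCGGAAG and present in 10.3% of all windows, stood 1 time in AGO3 and 2 times in TNRC6A, and the CCAAT box, present in 34.6%, stood once each in AGO1 and TNRC6A. A TATA box (TATAAA, 11.5% of windows) or an E-box (CACGTG, 7.26%) stood in none of the 4 windows. The windows of AGO2, which also fell, and of the other members are not given here. These 4 windows therefore do not show whether any site goes with a fall.

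The Argonaute genes together summed to 98.7, 89.6 and 88.97 TPM in siAHCYL1 cells and to 113.9, 116.3 and 101.7 TPM in siNC cells, so the groups did not overlap. AGO2 made up 47.9% ± 1.51 of that sum in siAHCYL1 cells and 51.0% ± 1.63 in siNC cells (SD, n = 3 each). AGO3 made up 7.10% ± 0.81 in siAHCYL1 cells and 10.5% ± 1.04 in siNC cells. AGO1 and AGO4 made up larger shares in siAHCYL1 cells than in siNC cells. AGO1 made up 28.4% ± 1.48 in siAHCYL1 cells and 25.3% ± 0.90 in siNC cells, and AGO4 16.6% ± 0.65 in siAHCYL1 cells and 13.1% ± 0.39 in siNC cells. For none of the 4 did the shares overlap between the groups, and the shares of 1 sum depend on each other.

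**Figure D3:**
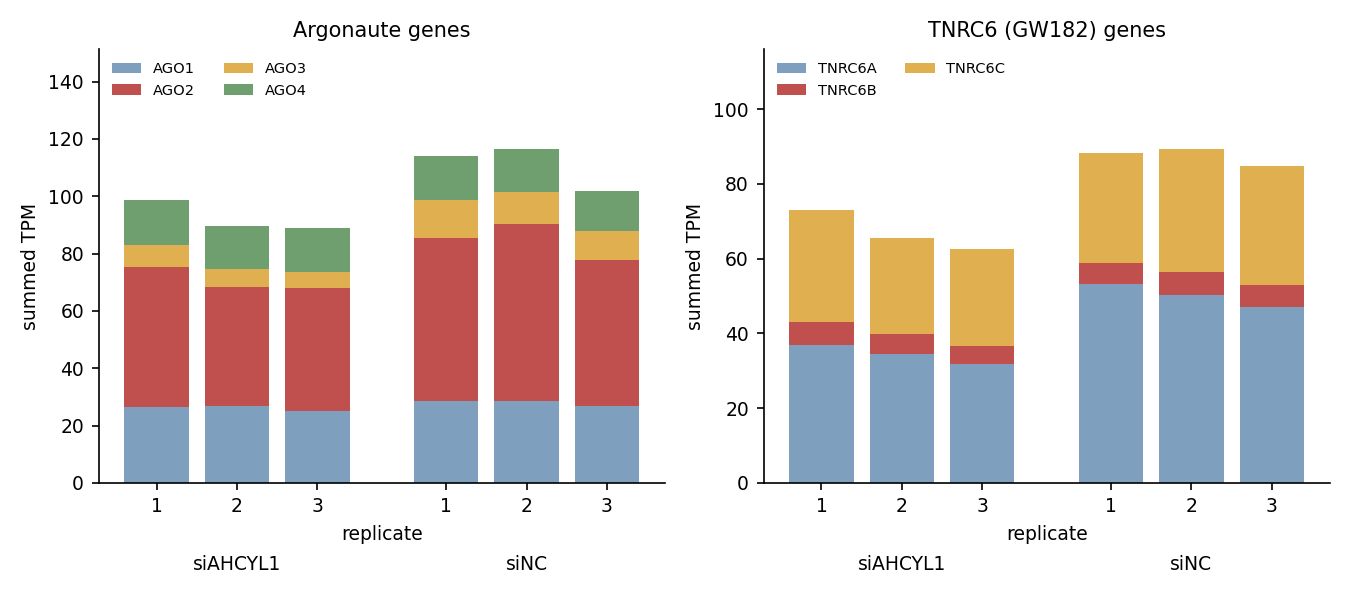
Stacked TPM of the Argonaute genes (left) and of the TNRC6 genes (right) in each library, siAHCYL1 libraries first and siNC libraries after them. The Argonaute sums lie between 88.97 and 98.7 TPM in siAHCYL1 cells and between 101.7 and 116.3 TPM in siNC cells, and the TNRC6 sums between 62.5 and 72.9 TPM in siAHCYL1 cells and between 84.9 and 89.3 TPM in siNC cells.

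Among the GW182 genes TNRC6A fell. TNRC6A, a scaffold that links Argonaute to the deadenylases, at chromosome 16, positions 24610209 to 24827632, had 36.92, 34.46 and 31.89 TPM in siAHCYL1 cells and 53.20, 50.40 and 47.08 TPM in siNC cells. More than 10 TPM separated the groups, and the siAHCYL1 mean was 68.5% of the siNC mean (log2 fold change -0.53, SE 0.084, limma adjusted p = 0.000669). Of the 10 members it had the smallest adjusted p.

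TNRC6C, at chromosome 17, positions 77959240 to 78108835, had 29.75, 25.68 and 25.93 TPM in siAHCYL1 cells and 29.53, 32.84 and 31.78 TPM in siNC cells. Replicate 1 was nearly equal in both groups while replicates 2 and 3 differed (log2 fold change -0.21, SE 0.089, limma adjusted p = 0.0808). With replicate 1 of both groups left out it passed (-0.31, adjusted p = 0.0102), and it passed without siAHCYL1 replicate 1 (-0.27, adjusted p = 0.0242), under median-of-ratios scaling (-0.27, adjusted p = 0.0166), quantile normalization (-0.29, adjusted p = 0.0118) and with the trend of length and GC taken out (-0.28, adjusted p = 0.0034). Its antisense neighbour TNRC6C-AS1 shares 1438 exonic bases with it and averaged 7.56 TPM in siAHCYL1 cells and 4.90 TPM in siNC cells, so part of the reads may belong to either gene.

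TNRC6B, at chromosome 22, positions 40044817 to 40335808, had 6.25, 5.40 and 4.64 TPM in siAHCYL1 cells and 5.66, 6.02 and 6.0 TPM in siNC cells. The siAHCYL1 libraries spread on both sides of the siNC libraries (log2 fold change -0.11, SE 0.13, limma adjusted p = 0.525). TNRC6A minus TNRC6B was -0.43 (SE 0.085) and TNRC6A minus TNRC6C -0.33 (SE 0.093) in log2 fold change, each with the smallest exact permutation p of 0.1, and TNRC6B minus TNRC6C was 0.10 (SE 0.065, exact permutation p = 0.3). The 3 genes summed to 72.9, 65.5 and 62.5 TPM in siAHCYL1 cells and to 88.4, 89.3 and 84.9 TPM in siNC cells. TNRC6A held 51.4% ± 1.02 of the sum in siAHCYL1 cells and 57.4% ± 2.48 in siNC cells (SD, n = 3 each), TNRC6C 40.5% ± 1.195 in siAHCYL1 cells and 35.9% ± 2.17 in siNC cells, and TNRC6B 8.08% ± 0.59 in siAHCYL1 cells and 6.74% ± 0.33 in siNC cells.

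Most members have long transcripts. In 1 transcript per gene from GENCODE v29, the 3′ untranslated region (UTR) was 16755 bases in AGO3, 12567 in TNRC6B, 11888 in AGO2 and 10921 in AGO1, each longer than in at least 99.2% of the 11847 genes searched, whose median was 1138 bases. AGO4 (4285 bases), DICER1 (4270 bases) and TNRC6C (3990 bases) were longer than at least 88.4%, TNRC6A had 2420 bases, and DROSHA (935 bases) and TARBP2 (283 bases) were below the median. The 4 longest belonged to AGO3 and AGO2, which fell, and to TNRC6B and AGO1, which did not pass.

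The 3′ UTRs were searched for GTATGCA, a 7-mer already known from earlier results of these data to go with lower fold changes, and for which carriers minus other genes gave the lowest mean log2 fold change (-0.27) of 15713 7-mers with at least 100 carriers. The gene targeted by the siRNA holds it once, in its coding sequence. Whether it belongs to the siRNA used could not be looked up, and its part in the results was not tested. Since it was picked from these same fold changes, more falls among its carriers are built into the choice, and the shares below are a description only. Of 934 genes with the 7-mer in the 3′ UTR 39.6% fell and 20.2% rose (median log2 fold change -0.15), and of 10913 genes without it 21.0% fell and 31.0% rose (median 0.06). Where an A followed the 7-mer, 49.6% of 254 genes fell. The 7-mer stood in the 3′ UTRs of AGO2, AGO3, AGO4 and TNRC6B, of which AGO2 and AGO3 fell, and not in those of the other 6 members, of which TNRC6A fell.

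The sites are shown with 11 bases on each side (GENCODE v29, GRCh38, plus strand), with the 7-mer in capitals, so that the base after it can be read. The sites of AGO2 are not printed here.
AHCYL1, coding, chr1:110018418-110018446: acagttgtatcGTATGCAatatgggccac
AGO3, 3′ UTR, chr1:36062963-36062991: attggcaatttGTATGCAacttttatatt
AGO4, 3′ UTR, chr1:35857685-35857713: ttgtctaataaGTATGCAgtacactgtaa
AGO4, coding, chr1:35834054-35834082: tgtttctgcaaGTATGCAcaaggtgcaga
TNRC6A, first coding site, chr16:24804812-24804840: agcagggctggGTATGCAaaacttgaatt
TNRC6A, other coding site, chr16:24805614-24805642: tcattgctgaaGTATGCAccaaacaacgg
TNRC6B, first 3′ UTR site, chr22:40328382-40328410: tggtatagaagGTATGCAagaggaaaaag
TNRC6B, middle 3′ UTR site, chr22:40328976-40329004: acacttcatgtGTATGCAttaactatact
TNRC6B, last 3′ UTR site, chr22:40334227-40334255: gtgaccaaagtGTATGCAgtgatctcaca
The 3′ UTR site of AGO3 is followed by an A, as are that of AGO2 and 1 of the 3 sites of TNRC6B, while the 3′ UTR site of AGO4 is followed by a G. TNRC6A, which fell, holds the 7-mer 2 times in its coding sequence, 1 of them before an A. Of 724 genes that hold it in the coding sequence and not in the 3′ UTR 27.9% fell and 22.8% rose. Of the 1362 genes with a 3′ UTR of at least 4000 bases 25.0% carried it, beside 7.88% of all genes searched, so a member with a long UTR is the more likely to hold it. Among the 341 carriers with such a UTR, to which AGO2, AGO3, AGO4 and TNRC6B belong, 33.7% fell and 22.6% rose (median -0.05). Among the 1021 genes with such a UTR and no 7-mer in it, 20.2% fell and 30.3% rose (median 0.06).

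**Figure D4:**
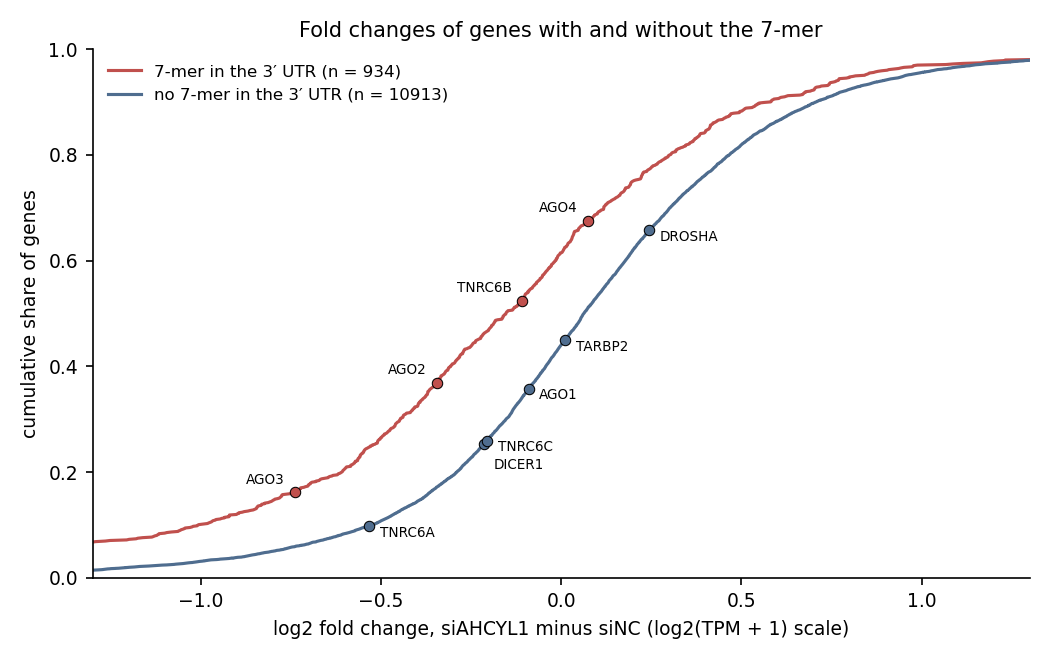
Cumulative share of genes by log2 fold change (siAHCYL1 minus siNC) for 934 genes with the 7-mer in the 3′ UTR and 10913 genes without it, with the 10 members marked on the curve they belong to. The curve of carriers lies to the left; AGO3 and AGO2 sit on its lower part, TNRC6B and AGO4 higher up, and TNRC6A is the lowest member on the other curve.

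The rest of the pathway was read from 7 lists of other genes. Of 115 entries 90 were tested, and 21 rose and 19 fell (44.4% changed, beside 51.6% over all genes), with a median log2 fold change of -0.02 beside 0.06. Each list held genes that did not pass, and of the 7 lists all but the germline list held changes in both directions.

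**Figure D5:**
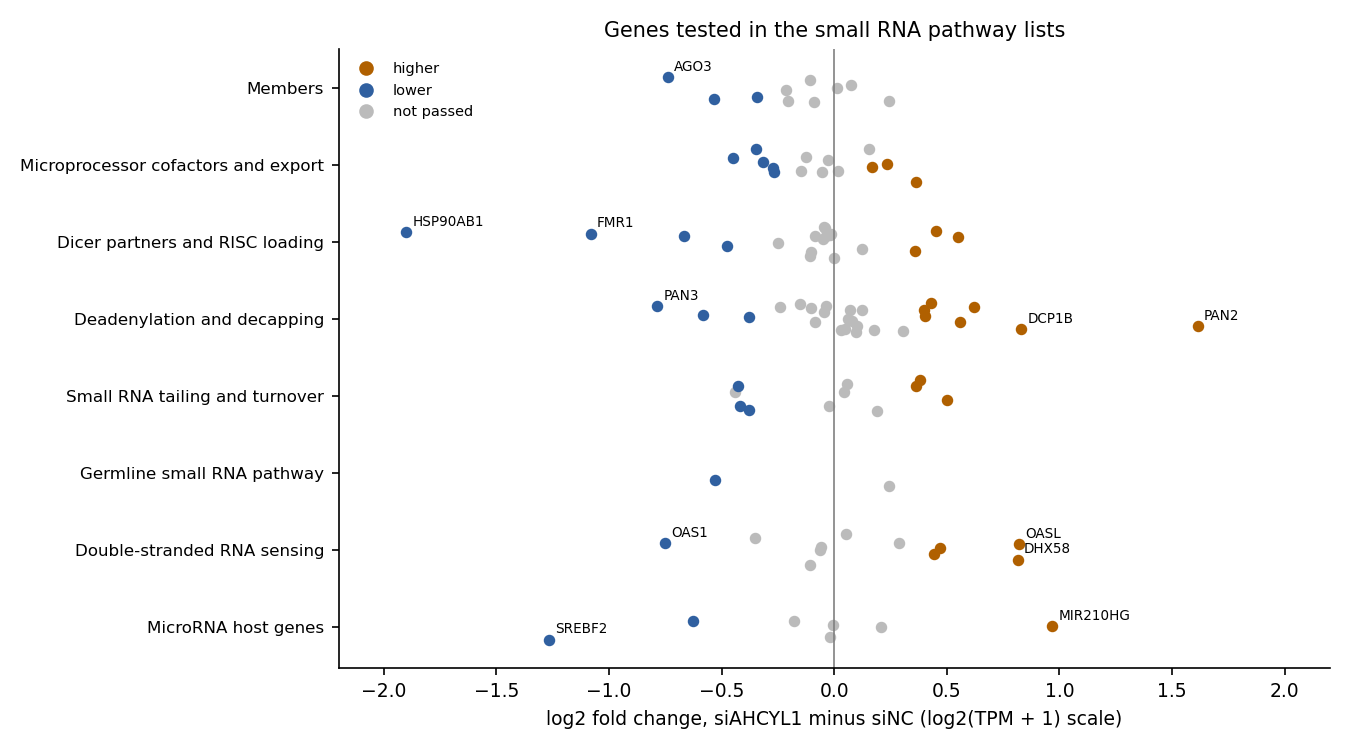
Log2 fold change of every tested gene of the members and the 7 lists (siAHCYL1 minus siNC, log2(TPM + 1) scale), coloured by call, with genes beyond 0.7 in either direction named; the vertical spread within a row only separates points. HSP90AB1 (-1.90) and PAN2 (1.61) lie farthest out.

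Around Drosha, 3 of 14 genes rose and 5 fell (57.1% changed, beside 51.6% over all genes, median -0.09). DGCR8, the RNA-binding partner of Drosha, whose own mRNA holds hairpins that Drosha can cut, had 35.79, 35.37 and 33.97 TPM in siAHCYL1 cells and 44.92, 43.25 and 39.70 TPM in siNC cells. The groups did not overlap and DGCR8 fell (log2 fold change -0.27, SE 0.077, limma adjusted p = 0.0147), while its partner DROSHA had the higher mean in siAHCYL1 cells without passing. The part of Drosha cutting in the level of DGCR8 was not tested. The DGCR8 call was lost without siAHCYL1 replicate 3 (adjusted p = 0.0519) and without siNC replicate 2 (adjusted p = 0.0576). ILF2 (-0.45), a nuclear protein found in complexes with double-stranded RNA, HNRNPA2B1 (-0.35), an RNA-binding protein that reads methylated primary microRNAs, and SRRT (-0.32), which links the nuclear cap-binding complex to Microprocessor, fell with limma adjusted p of at most 0.00176. METTL3, the adenosine methyltransferase, went most against them and rose to 84.5 ± 0.44 TPM in siAHCYL1 cells, against 65.5 ± 2.03 TPM in siNC cells (0.36, limma adjusted p = 0.0011). XPO5, exportin 5, had 70.5 ± 5.47 TPM in siAHCYL1 cells and 69.6 ± 3.75 TPM in siNC cells and did not pass (0.02, limma adjusted p = 0.881).

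Among 19 Dicer partners and genes of Argonaute loading, 3 rose and 4 fell (36.8% changed, beside 51.6% over all genes, median -0.04). HSP90AB1, a cytosolic HSP90 chaperone, the machine that opens Argonaute for a duplex, had 887.08, 733.08 and 741.10 TPM in siAHCYL1 cells and 3253.29, 2914.84 and 2653.34 TPM in siNC cells. Its siAHCYL1 mean was 26.8% of the siNC mean (log2 fold change -1.90, SE 0.095, limma adjusted p = 1.01e-06), and processed pseudogenes of HSP90 genes can share its reads. Its paralog HSP90AA1 averaged 1150 ± 149.7 TPM in siAHCYL1 cells and 1368 ± 184.3 TPM in siNC cells and did not pass (-0.25, limma adjusted p = 0.0902), though it passed under 6 of 15 alternatives. The HSP90 co-chaperones FKBP4 (-0.67) and STIP1 (-0.48) fell with limma adjusted p of at most 0.000145.

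FMR1, the fragile X RNA-binding protein that associates with Argonaute, had 21.87, 18.45 and 16.93 TPM in siAHCYL1 cells and 44.04, 39.13 and 40.83 TPM in siNC cells. Its siAHCYL1 mean was 46.2% of the siNC mean (-1.08, SE 0.10, limma adjusted p = 3.8e-05). Of the 90 tested pathway genes 79 had a 3′ UTR searched, and 8 carried the 7-mer there: HSP90AB1, FMR1 and PLD6 fell, the other 5, CNOT1 and DCP2 among them, did not pass, and 0 rose. Of the 71 without it 14 fell and 17 rose. Since the 7-mer was picked from fold changes that include those of these genes, this contrast is partly built into the choice and is a description only. The sites of FMR1 and HSP90AB1 before an A are shown because these are the carriers with the lowest fold changes on the lists.
FMR1, 3′ UTR, chrX:147950585-147950613: caatatattttGTATGCAagcagtttcaa
HSP90AB1, 3′ UTR, chr6:44253839-44253867: ctgaaattaaaGTATGCAaaataaagaat
MOV10, a helicase that binds Argonaute, went most against the falls and rose to 81.4 ± 5.75 TPM in siAHCYL1 cells, against 55.2 ± 0.63 TPM in siNC cells (0.55, SE 0.072, limma adjusted p = 0.000234). PRKRA, the other double-stranded RNA-binding partner of Dicer, had 58.4 ± 7.82 TPM in siAHCYL1 cells and 60.1 ± 6.94 TPM in siNC cells and, like TARBP2, did not pass (-0.04, limma adjusted p = 0.775).

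Downstream of GW182, 7 of 26 tested genes of deadenylation and decapping rose and 3 fell (median 0.07, beside 0.06 over all genes). In all 38.5% of them changed, beside 51.6% over all genes. GW182 proteins recruit 2 deadenylase complexes, PAN2-PAN3 and CCR4-NOT. PAN2, the catalytic subunit of the first, had 21.52, 20.08 and 19.20 TPM in siAHCYL1 cells and 5.75, 5.93 and 6.16 TPM in siNC cells. It rose 3.41-fold in the mean TPM (log2 fold change 1.61, SE 0.099, limma adjusted p = 2.93e-06). PAN3, the subunit through which GW182 is bound, moved the other way, with 10.86, 8.89 and 9.20 TPM in siAHCYL1 cells and 17.92, 17.16 and 16.84 TPM in siNC cells. Its siAHCYL1 mean was 55.8% of the siNC mean (-0.79, SE 0.11, limma adjusted p = 0.000257), so in siAHCYL1 cells PAN2 stood above PAN3 in every library and in siNC cells below it.

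No CCR4-NOT gene of the 10 tested passed, from CNOT7 (-0.24, limma adjusted p = 0.108) to CNOT10 (0.31, limma adjusted p = 0.0838), the lowest and highest of the CNOT genes. CNOT7 passed under 7 of 15 alternatives and CNOT10 under 5. TOB2, an adaptor of CCR4-NOT, rose (0.56, limma adjusted p = 0.00012), while its paralog TOB1, named after its values were seen, fell to 25.7 ± 1.43 TPM in siAHCYL1 cells, against 33.7 ± 3.05 TPM in siNC cells (-0.38, limma adjusted p = 0.00707). A further gene that rose was EIF4E2, the cap-binding repressor 4EHP, which had 45.8 ± 3.46 TPM in siAHCYL1 cells and 29.5 ± 1.46 TPM in siNC cells (0.62, limma adjusted p = 0.000268). The decapping activators DCP1A and DCP1B, named after their values were seen, moved in opposite directions. DCP1A had 17.6 ± 1.73 TPM in siAHCYL1 cells and 26.9 ± 1.81 TPM in siNC cells (-0.58, limma adjusted p = 0.00108), and DCP1B had 20.2 ± 4.15 TPM in siAHCYL1 cells and 10.8 ± 1.24 TPM in siNC cells (0.83, limma adjusted p = 0.0017). The decapping enzyme DCP2 did not pass (10.6 ± 0.88 TPM in siAHCYL1 cells and 10.3 ± 0.62 TPM in siNC cells, limma adjusted p = 0.836).

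Of 11 tested genes that tail or degrade small RNAs, 3 rose and 3 fell (54.55% changed, beside 51.6% over all genes, median 0.04). XRN2, a nuclear exonuclease, fell to 133.9 ± 11.96 TPM in siAHCYL1 cells, against 174.0 ± 12.6 TPM in siNC cells (-0.38, limma adjusted p = 0.00436), and ERI1, a 3′ exonuclease, fell (-0.42, limma adjusted p = 0.00833). PARN, a poly(A)-specific ribonuclease, rose (0.50, limma adjusted p = 0.00705), as did the uridylyltransferase TUT7, listed as ZCCHC6 (0.38, limma adjusted p = 0.00498). LIN28A, which blocks let-7 maturation in stem cells, was listed at 0 in all 6 libraries. Its paralog LIN28B was low but present, with 0.997 ± 0.19 TPM in siAHCYL1 cells and 1.71 ± 0.35 TPM in siNC cells. LIN28B did not pass (-0.44, limma adjusted p = 0.0693), though it passed under 4 of 13 alternatives.

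The germline branch of small RNA biology was nearly silent. PIWIL3 was listed at 0 in all 6 libraries, and PIWIL2 and PIWIL4 did not exceed 0.13 TPM in any. PIWIL1 was to be named with any result, but no value for it was obtained here. Of 12 genes of the list 2 were tested, and PLD6, a mitochondrial enzyme, fell to 7.07 ± 1.90 TPM in siAHCYL1 cells, against 10.5 ± 1.597 TPM in siNC cells (-0.53, limma adjusted p = 0.0381), a call lost under 6 of 15 alternatives with limma adjusted p up to 0.116.

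Sensors of double-stranded RNA were described because both groups received a duplex. Of 11 tested, 4 rose and 1 fell (median 0.05), where 30.4% of all genes tested rose and 21.2% fell. In all, 45.5% of the 11 changed, beside 51.6% over all genes. The sensors EIF2AK2, IFIH1, RIGI (listed as DDX58) and TLR3 did not pass, with limma adjusted p of at least 0.19. TLR3 passed under 2 of 15 alternatives. IFNB1, interferon beta, was listed at 0 in all 6 libraries. OASL rose to 35.6 ± 4.96 TPM in siAHCYL1 cells, against 19.8 ± 3.32 TPM in siNC cells (0.82, limma adjusted p = 0.000886). MAVS, the adaptor of the cytosolic sensors (0.47), and the sensor DHX58 (0.82) rose with limma adjusted p of at most 0.00284. OAS1 went against them at a low level, with 0.28, 0.50 and 0.44 TPM in siAHCYL1 cells and 1.78, 1.08 and 1.29 TPM in siNC cells (-0.75, limma adjusted p = 0.00984). OAS1 met the filter of 1 TPM in 3 libraries only through siNC. Its fall is therefore tied to its entry into the test and is a description only. It could be tested under 10 of 15 alternatives.

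Host genes of microRNAs were the last list, with 1 of 7 tested genes higher and 2 lower (42.9% changed, beside 51.6% over all genes, median -0.02). SREBF2, a sterol-regulated transcription factor whose intron holds miR-33a, fell to 48.8 ± 3.54 TPM in siAHCYL1 cells, against 118.6 ± 4.54 TPM in siNC cells (-1.27, limma adjusted p = 2.24e-06). MIR210HG rose to 3.09 ± 0.30 TPM in siAHCYL1 cells, against 1.10 ± 0.25 TPM in siNC cells (0.97, limma adjusted p = 0.00106). MIR17HG, the host of the miR-17-92 cluster, had 1.88, 2.29 and 1.37 TPM in siAHCYL1 cells and 3.92, 4.06 and 2.33 TPM in siNC cells (-0.63, limma adjusted p = 0.0305), a call lost under 6 of 13 alternatives with limma adjusted p up to 0.116. Mature microRNAs are not measured by these libraries, so a host level gives no microRNA level.

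A chosen mature microRNA from each hairpin inside these 3 host genes is printed to show guides that the changed hosts encode (RefSeq, GRCh38.p14), with the seed in capitals. Other mature microRNAs of the same hairpins are not printed.
miR-33a-5p, in SREBF2: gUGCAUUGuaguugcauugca
miR-210-3p, in MIR210HG: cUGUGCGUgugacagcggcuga
miR-17-5p, in MIR17HG: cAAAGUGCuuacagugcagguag
miR-20a-5p, in MIR17HG: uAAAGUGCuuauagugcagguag
miR-18a-5p, in MIR17HG: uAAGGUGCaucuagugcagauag
miR-19a-3p, in MIR17HG: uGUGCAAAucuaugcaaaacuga
miR-19b-3p, in MIR17HG: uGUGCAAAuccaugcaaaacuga
miR-92a-3p, in MIR17HG: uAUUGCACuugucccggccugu
Among those printed, the seed of miR-17-5p is that of miR-20a-5p, and the seed of miR-19a-3p is that of miR-19b-3p. The other 4 printed differ from each other and from these.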

How the data were processed

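The authors deposited 1 table of TPM for 6 libraries, non-directional per the labels' protocols. The GRCh38 build, STAR and RSEM are named per the submitters' processing notes; tool versions and the annotation: not given in the sources used here. TPM keeps no depth, so no counting interval could be set. Columns with the prefix nc were taken as siNC and those with si as siAHCYL1, the only other group. Replicates are called biological in the labels, which name no separate cultures, so the spread behind each p-value is that between the samples and may be technical.

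The 13266 genes that reached 1 TPM in 3 or more of the 6 libraries were compared as log2(TPM + 1), using limma 3.58.1 and R 4.3.3 (intensity trend, two-sided, Benjamini-Hochberg over all genes, group as the only term) and checked on simulated data. Fold changes understate those of low genes. Differences within families used two-sided exact permutation tests (scipy 1.17.1). Alternatives were another pseudocount, filters, scalings, a replicate block, no trend with robust moderation, and libraries left out; removing a length and GC trend was added after seeing the data. Members and lists were chosen with earlier results of these data known. Named were AHCYL1, the members, DGCR8, XPO5, PRKRA, HSP90AB1 and PIWI genes with any result, markers, and from each list up to 4 changed genes by adjusted p and the one most against its majority. HSP90AA1, TOB1, CNOT1, DCP1A, DCP1B, DCP2, CNOT7, CNOT10, LIN28A, LIN28B, EIF2AK2, IFIH1, RIGI, TLR3 and IFNB1 were named after their values were seen. Of 151 list entries 145 were found, 5 of them under an older symbol. Transcripts came from GENCODE v29 (best APPRIS rank, then longest coding sequence). Single genes that the naming rule covers are in part not reported here.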

Additional observations from a re-analysis of the deposited data

How the results depend on the processing

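TPM leaves depth unknown, and its limits with it. The count of changed members, of 10 tested, was 3, where 51.6% of all genes changed. It became 5 under median-of-ratios scaling (54.2% of all genes), 5 under quantile normalization (54.35%) and 5 with replicate 1 of both groups left out (53.05%). It was 6 once the trend of length and GC was taken out (61.35% of all genes). With single libraries dropped it lay between 2 and 5. It was 2 without siAHCYL1 replicate 2 (42.8% of all genes) or siNC replicate 2 (42.6%), and 5 without siAHCYL1 replicate 1 (51.4%). The cause was not tested. AGO3 and TNRC6A passed under all 15 alternatives and AGO2 under 13, with log2 fold changes from -0.85 to -0.64, -0.63 to -0.48 and -0.45 to -0.28. AGO1, AGO4, TARBP2 and TNRC6B passed under none of the 15. Uncalled differences that changed sign were AGO4 with quantile normalization (-0.0247) and TARBP2 under scaling by median of ratios (-0.0512), under quantiles (-0.0728) and with the trend of length and GC taken out (-0.0931); with single libraries dropped TARBP2 ranged from -0.0244 to 0.0566, negative without siAHCYL1 or siNC replicate 2. The count over all genes was 6844 and ranged from 5566 to 7919, that over the pathway lists was 40 and ranged from 34 to 48, and AHCYL1 ranged from -3.54 to -3.38. Replicate numbers are shared between the groups, but the deviations of libraries with the same number correlated at 0.233, 0.00092 and 0.154, so pairing is not shown; libraries 1 and 3 of each group correlated best with their own number and those numbered 2 did not. With the replicate block 4 members changed, DROSHA joining (adjusted p = 0.0109), 48 pathway genes and 7919 genes in all (59.7% of those tested).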
